A study of Caenorhabditis elegans with 2 samples.

Results

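The genes described here were listed as genes for the actin and myosin filaments of nematode body muscle and for proteins that act on them. They are unc-60, act-1, act-2, act-3, act-4, unc-54, myo-3, myo-6, unc-15 and lev-11, 10 genes of the 19973 nuclear protein-coding genes in the Caenorhabditis elegans WBcel235 gene models, the assembly also called ce11. They were examined for sites at which DIE-1, a zinc finger transcription factor, was recovered by chromatin immunoprecipitation and sequencing (ChIP-seq). The genes were listed by symbol and selected on peak signals of these same samples, which were already known, so those signals are given as a description and support nothing. All samples formed 1 group of 2 biological replicates of strain RW10316. Whole young adult hermaphrodites were taken 64 hours after synchronization as starved L1 larvae, and they carried DIE-1 with GFP and FLAG at its C terminus, from an insertion aimed at die-1. The precipitation used an antibody against GFP. No untagged strain or other condition was compared, and whole animals mix muscle with every other tissue, so these lists do not say in which cells a peak arose.

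Body wall muscle of the worm is obliquely striated. Thick filaments are built of myosin heavy chains over a paramyosin core, and thin filaments of actin carry tropomyosin and troponin. Cofilin severs actin filaments and lets thin filaments be rebuilt in ordered arrays. Many of these genes are known from worms that are paralysed or move poorly when they are mutated.

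Signal is the authors' enrichment value for a peak, on an unstated scale. The summit is the base that the authors marked inside a peak. A summit was counted for a gene when it lay from 2000 bp upstream of the gene's 5′ end to its 3′ end. The authors' reproducible list held 1432 peaks with signals from 79.4 to 5177 (median 115.5), and their pooled relaxed list held 30000 peaks that started at 18.4 (median 28.3). The relaxed list of replicate 1 held 23789 peaks (median 16.3) and that of replicate 2 held 29268 (median 18.6). All reproducible peaks had the same −log10 q of 2.41, which therefore could not order them. Read depth is not given in these lists. A pooled peak was called matched by a replicate when that replicate's relaxed list had a summit within 200 bp, which is not independent evidence because the pooled list was made from the same replicates. die-1 itself had 0 reproducible and 2 pooled summits, the higher with a signal of 52.7.

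Of the 10 genes, unc-60, act-4 and myo-6 had a reproducible summit, where 6.88% of all protein-coding genes had one. These 3 genes held 5 reproducible peaks. The sequence around each summit is shown because these are the reproducible summits inside the windows of the 10 genes. All are on the plus strand of WBcel235, with the 21 bases centred on the summit in capitals, except that the capitals of the first myo-6 site mark a tRNA gene.
unc-60, 419 bp upstream of the gene start, chrV:1474567-1474767: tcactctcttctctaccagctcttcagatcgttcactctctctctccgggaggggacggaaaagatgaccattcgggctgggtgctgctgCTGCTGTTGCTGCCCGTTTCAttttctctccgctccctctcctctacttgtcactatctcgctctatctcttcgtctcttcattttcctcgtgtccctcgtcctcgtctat
act-4, 51 bp upstream of the gene start and ending at its last upstream base, chrX:4960470-4960620: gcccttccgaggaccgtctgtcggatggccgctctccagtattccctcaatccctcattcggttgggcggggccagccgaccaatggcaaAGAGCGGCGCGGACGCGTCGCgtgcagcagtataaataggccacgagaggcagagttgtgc
act-4, first intron, chrX:4962289-4962489: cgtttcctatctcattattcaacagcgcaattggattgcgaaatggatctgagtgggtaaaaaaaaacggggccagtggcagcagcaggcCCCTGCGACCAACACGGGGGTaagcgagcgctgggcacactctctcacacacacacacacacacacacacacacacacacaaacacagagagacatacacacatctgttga
myo-6, intron with a tRNA gene, chrIII:13411288-13411488: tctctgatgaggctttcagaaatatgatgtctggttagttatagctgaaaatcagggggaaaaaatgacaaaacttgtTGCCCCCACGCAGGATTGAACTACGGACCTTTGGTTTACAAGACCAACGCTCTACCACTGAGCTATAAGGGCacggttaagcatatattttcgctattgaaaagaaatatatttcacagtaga
myo-6, long intron, chrIII:13419088-13419288: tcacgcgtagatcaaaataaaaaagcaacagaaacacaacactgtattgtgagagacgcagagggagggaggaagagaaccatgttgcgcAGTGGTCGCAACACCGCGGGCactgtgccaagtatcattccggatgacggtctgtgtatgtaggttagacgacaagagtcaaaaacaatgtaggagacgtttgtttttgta

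The unc-60 sequence is rich in runs of C and T, the act-4 intron holds a run of CA repeats just downstream of its summit, and the second myo-6 sequence holds a 27-base word, gttagacgacaagagtcaaaaacaatg. That word occurs in 2 places in the genome, which lie 203 bp apart around this summit. GC content from 150 bases before to 150 bases after the summit was 53.2% at unc-60, 56.5% upstream of act-4 and 54.2% in the act-4 intron. At the myo-6 sites it was 42.2% at the tRNA gene and 43.9% in the long intron, while the median over 862 nuclear reproducible summits away from short RNA genes was 41.9%. Short RNA genes here are those annotated as tRNA, snoRNA, snRNA, rRNA, miRNA or scRNA genes, and away means more than 200 bp from any. Among those 862 summits, 3.83% had a GC content at or above that of the upstream act-4 site, 7.89% at or above that of the act-4 intron and 10.1% at or above that of unc-60.

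All 10 genes had at least 1 pooled relaxed summit, where 64.2% of all protein-coding genes had one. Windows of the 10 genes were also longer, which gives a summit more room, with a median of 7542 bp against 4027 bp for all genes. Set against length, the 10 genes held 44 pooled summits in 78.1 kb, or 0.563 per kb, and the windows of all protein-coding genes held 0.320 per kb. The median pooled signal was 30.05 at the 10 genes and 28.3 over the windows of all genes. The highest pooled signal of each gene spread widely, from 169.5 at myo-6 to 29.1 at act-3, with a median of 48.6. Over all genes with a pooled summit, the median highest signal was 36.4.

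**Figure D1:**
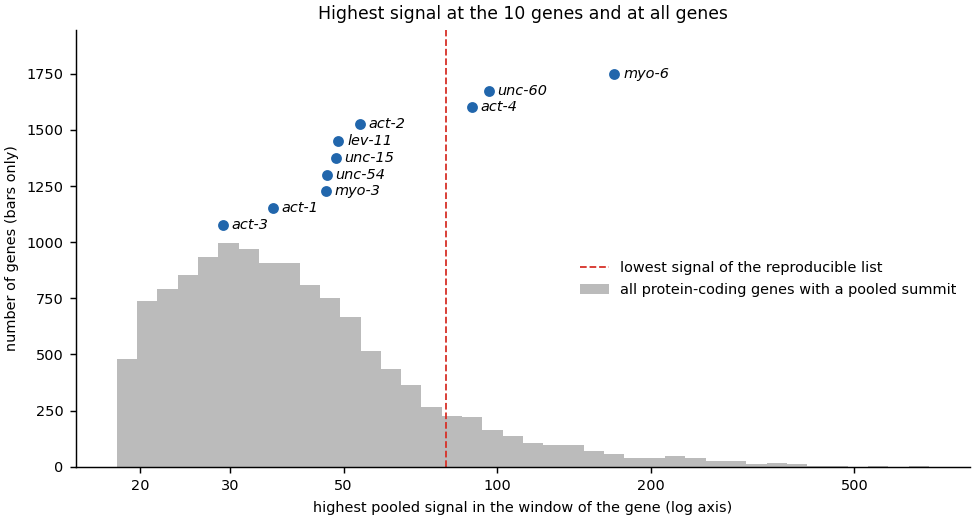
Highest pooled signal (log axis) in the window of each gene. Grey bars count all protein-coding genes with a pooled summit, blue points mark the 10 muscle genes at heights chosen only for legibility, and the dashed line is the lowest reproducible signal of 79.4. myo-6, unc-60 and act-4 lie to the right of the line and the other 7 genes to its left.

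In that order, myo-6 (169.5) was reached or passed by 1.43% of all protein-coding genes, unc-60 (96.1) by 4.65% and act-4 (89.2) by 5.58%. act-2 followed at 53.9, reached by 15.2%. lev-11 (48.9), unc-15 (48.3), unc-54 (46.3) and myo-3 (46.3) lay within a few units of each other and were reached by 18.8% to 21.0% of genes. act-1 (36.4, 32.2%) and act-3 (29.1, 44.0%) were lowest. The act-4 peak at 81.8 was the member peak just inside the reproducible list, and the act-2 peak at 53.9 was the nearest outside it.

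unc-60 codes for ADF/cofilin, the actin severing protein, and lies at chrV:1475086-1479576 on the plus strand. Its reproducible peak (chrV:1474449-1474884) had its summit 419 bp upstream of the start, with a signal of 96.1 and rank 989 of 1432. The matching summit had a signal of 59.6 in replicate 1 (rank 546) and 36.9 in replicate 2 (rank 2639 of 29268). Replicate 1 thus placed the site among its strongest peaks and replicate 2 much further down its list. A second upstream summit at 197 bp had a pooled signal of 33.0, with 26.2 in replicate 1 and 14.2 in replicate 2. The last summit lay 1388 bp into the gene, with a pooled signal of 51.6 and 37.6 in replicate 2, while replicate 1 had no summit within 200 bp. That base is in an unc-60 intron and also in the 3′ UTR of F53E2.2, a gene model that starts at the same base as unc-60, so the upstream peak is as near to one as to the other.

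act-4, the actin gene on the X chromosome (chrX:4960621-4964413, plus strand), was the only one of the 4 actin genes listed with reproducible summits inside its window, and it had a pair of them. The upstream summit lay 51 bp before the gene start (chrX:4960352-4960787) with a signal of 81.8 at rank 1357. Its signal was 29.1 in replicate 1, whose summit lay 55 bp further along, and 52.6 in replicate 2. The intron summit lay 1768 bp into the gene (chrX:4962171-4962606) with a signal of 89.2 at rank 1164, with 41.7 in replicate 1 and 46.8 in replicate 2. The replicates gave close values in the intron, and the value of replicate 2 was the higher upstream. By rank, the intron summit was the stronger in replicate 1 (1165, against 2734 upstream). In replicate 2 the upstream summit was the stronger (1173, against 1502 in the intron). The intron summit was 486 bp before the annotated start of a shorter act-4 transcript, whose model begins at its start codon. Other pooled summits in act-4 had signals of 33.9 in the first intron, matched by both replicates, and 28.2 in a coding exon, matched by replicate 1.

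act-1, act-2 and act-3 stand together on chromosome V and code for muscle actins. act-1 lies at chrV:11081052-11082415 on the plus strand, and act-2 (chrV:11076777-11078154) and act-3 (chrV:11071690-11074498) lie on the minus strand. Their windows held 9 pooled summits in 10.4 kb, or 0.861 per kb, and 0 reproducible summits. At act-1 all 3 pooled summits were upstream, and the highest, 604 bp before the start, had 36.4 in the pooled list, 12.2 in replicate 1 and 27.7 in replicate 2. At act-3 the highest lay 1209 bp upstream, with 29.1 in the pooled list, 14.6 in replicate 1 and 21.0 in replicate 2. An act-3 intron summit followed with 28.0, and it lay 475 bp before the start of a shorter act-3 transcript. The highest signal at act-2 was 53.9 in a coding exon, 329 bp into the gene. Replicate 2 had 44.5 there (rank 1677) and replicate 1 had no summit within 200 bp. The act-2 summit that both replicates matched was weaker, 457 bp upstream, with 35.6 pooled, 11.6 in replicate 1 at a distance of 198 bp, and 31.5 in replicate 2.

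A stronger peak stood in the actin cluster just outside both neighbouring windows, and it was noticed only after the values had been seen. Its summit (chrV:11076576-11076741) lay in the 278 bp gap between the windows of act-2 and act-3, 120 bp past the 3′ end of act-2 and 2159 bp upstream of act-3. It was a reproducible peak with a signal of 145.9 at rank 452. Replicate 2 had 94.9 within 2 bp (rank 369). Replicate 1 had 19.3 at a distance of 88 bp and a stronger summit, 56.6 (rank 604), slightly further off. The summit was 9 bp inside T04C12.14, a noncoding RNA gene of 182 bp on the minus strand, and 0% of the 31-base words of the peak occurred elsewhere in the genome. Its sequence is shown because it was the reproducible peak nearest to act-2, again with the 21 bases around the summit in capitals. Unlike the sequences above, it is given for the minus strand, the strand of act-2.
act-2 to act-3 gap, chrV:11076557-11076757: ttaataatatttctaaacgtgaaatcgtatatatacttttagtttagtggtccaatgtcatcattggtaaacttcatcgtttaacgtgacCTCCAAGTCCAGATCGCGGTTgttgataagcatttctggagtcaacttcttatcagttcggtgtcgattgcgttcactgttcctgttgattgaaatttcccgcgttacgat

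**Figure D2:**
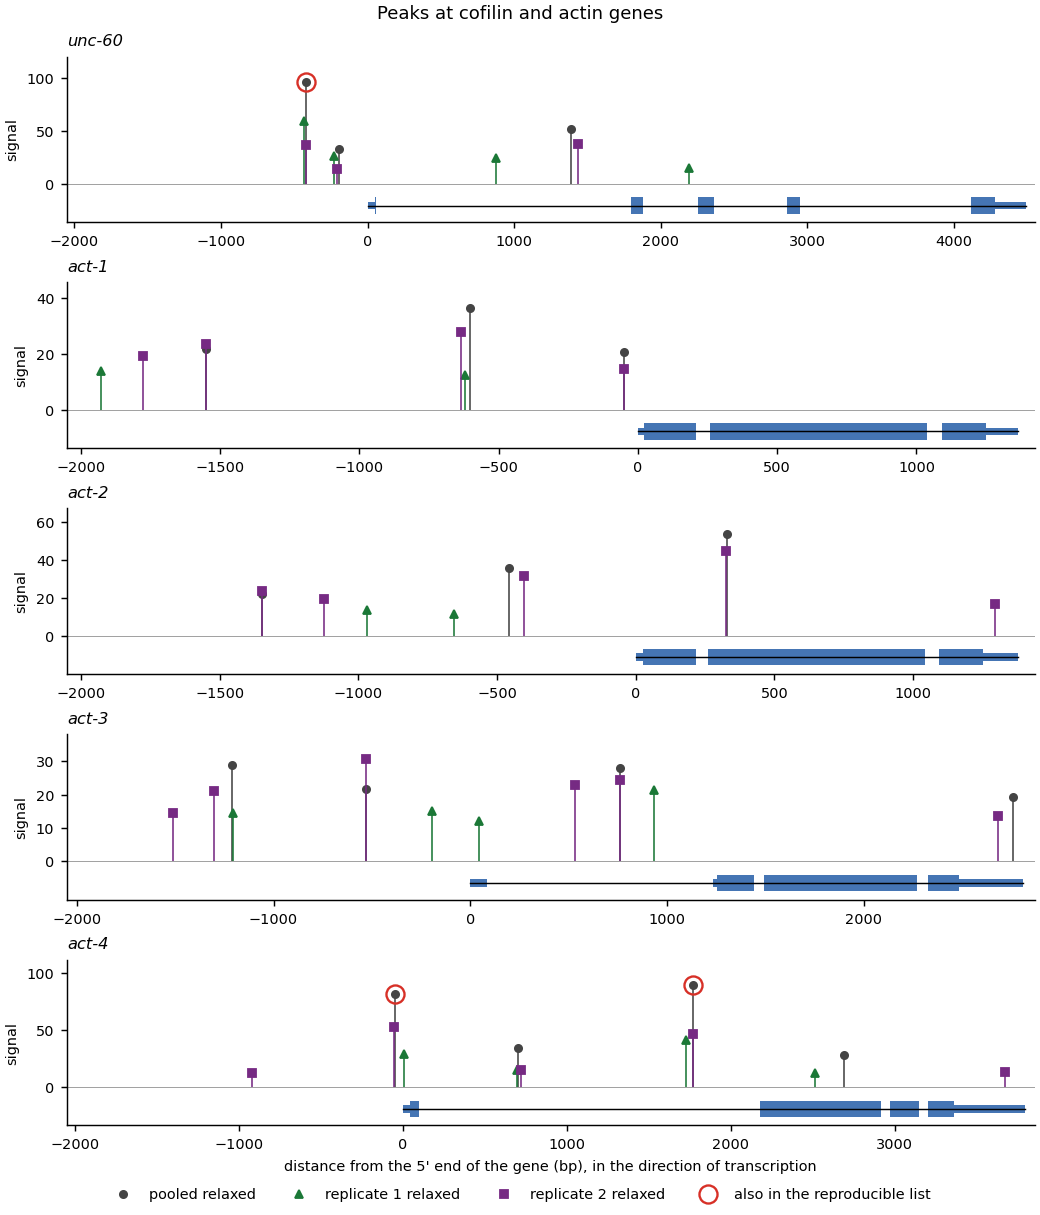
Summits at unc-60 and the actin genes by distance from the 5′ end of the gene (bp, in the direction of transcription) and signal. Grey circles are pooled, green triangles replicate 1 and purple squares replicate 2 relaxed peaks, red rings mark reproducible peaks, and blue boxes are exons with coding parts taller. unc-60 has 1 ringed summit upstream, act-4 has 2, and act-1, act-2 and act-3 have none inside the windows drawn.

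Coding exons of the actin genes are hard to separate by reads, because the copies are nearly the same. The coding sequences of act-1 and act-3 were identical over 1128 bases, each was 96.2% identical to act-2 and 94.2% identical to act-4, and act-2 and act-4 were 91.8% identical. In act-1 and act-3, 100% of coding 31-base words occurred elsewhere in the genome, against 46.5% in act-2 and 23.9% in act-4. With 50-base words the shares stayed at 100% in act-1 and act-3 but were 31.9% in act-2 and 11.8% in act-4. In the 2000 bp upstream of each of these 4 genes the share was 0% at both word lengths. No list had a summit in a coding exon of act-1 or act-3, and neither the read length nor the treatment of reads with several positions is stated, so a peak there may not have been detectable.

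Over the whole act-2 coding peak, 23.6% of 31-base words and 10.1% of 50-base words recurred elsewhere. Among the 44 pooled peaks of the 10 genes, 6 (13.6%) had more than 10% of 31-base words that recurred, against 10.6% in a sample of 2998 pooled peaks and 34.3% of all nuclear reproducible peaks. At the reproducible peaks the share of 31-base words was 0% at unc-60, 0.493% upstream of act-4, 3.94% in the act-4 intron, 11.8% at the myo-6 tRNA gene and 10.8% in the myo-6 long intron. With 50-base words it was 7.49% at the myo-6 tRNA gene and 0% at the other 4.

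**Figure D3:**
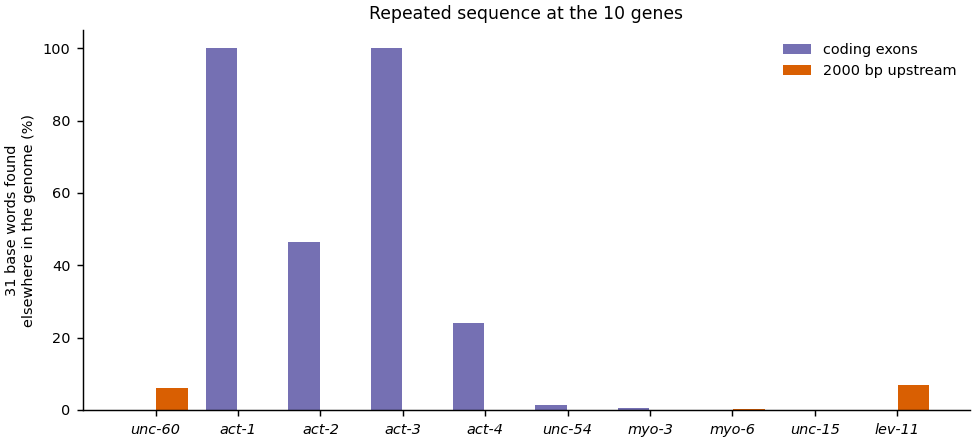
Share of 31-base words that occur elsewhere in the genome (%), in the coding exons (purple) and the 2000 bp upstream (orange) of each gene. Coding exons of act-1 and act-3 reach 100% and those of act-2 46.5%, while the highest upstream share is 6.90%, at lev-11.

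Of the myosin and paramyosin genes, myo-6 had the highest signal (169.5), while unc-54, myo-3 and unc-15 reached 46.3, 46.3 and 48.3. Whether myo-6 acts in body muscle is not shown by these lists. myo-6, annotated by name as a myosin heavy chain gene, lies at chrIII:13409798-13423534 on the plus strand and had a pair of reproducible peaks, both in introns. The first (chrIII:13411170-13411605) had a signal of 166.5 at rank 341, with 86.5 in replicate 1 and 81.9 in replicate 2. Its summit was inside a threonine tRNA gene of 72 bp on the opposite strand (chrIII:13411366-13411437), and also in an exon of the noncoding RNA gene F45G2.12. Across the series, 434 reproducible peaks lay within 200 bp of a tRNA gene, with a median signal of 159.2 and quartiles of 124.7 and 211.6, and the value at this site lay between those quartiles. Whether the signal belongs to the tRNA gene or to myo-6 was not tested.

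The other myo-6 peak (chrIII:13418970-13419405) had no short RNA gene within 7751 bp and a signal of 169.5 at rank 330, with 65.8 in replicate 1 and 96.7 in replicate 2. Among the 862 reproducible peaks away from short RNA genes it ranked 62, while unc-60 ranked 474 and the act-4 summits 625 (intron) and 795 (upstream). This summit lay 9390 bp into the gene, and 296 bp before the annotated start of a shorter myo-6 transcript at position 13419484. The summit at the tRNA gene was likewise 398 bp before the start of another myo-6 transcript, at 13411786. That model starts 1988 bp into the gene, with coding sequence annotated from 1990 bp. Whether such annotated starts mark where transcription begins was not tested. Together, 5 of the 5 reproducible member summits had a protein-coding transcript start within the next 500 bp, compared with 26.6% of all nuclear reproducible summits. Among pooled summits the counts were 13 of 44 at the 10 genes (29.5%) and 18.1% of all nuclear pooled summits. This distance was chosen after the positions of the 5 reproducible summits had been seen, so their count followed from that choice and supports nothing. The sets also differ, because member summits lie in gene windows by rule. Of the 1411 nuclear reproducible summits, 1127 lay in the window of a protein-coding gene.

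unc-54 (chrI:14855901-14863482, minus strand) codes for the major myosin heavy chain of body wall muscle. Its 8 pooled summits had signals from 18.8 to 46.3, and the highest lay 212 bp upstream, with 17.3 in replicate 1 and 30.6 in replicate 2. The other 7 lay inside the gene, 6 of them in coding exons, and the summits at 1512 and 1725 bp were matched by the same summit in each replicate. myo-3 (chrV:12226817-12234343, minus strand) codes for the myosin heavy chain at the centre of the thick filament. It had no pooled summit upstream and 2 in coding exons. The higher of these, 6610 bp into the gene, had 46.3 in the pooled list. It had 21.1 in replicate 1 (rank 6295 of 23789) and 23.5 in replicate 2 (rank 8494 of 29268).

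unc-15 (chrI:7376604-7383197, minus strand) codes for paramyosin, the core protein of the thick filament. Its summit 33 bp upstream of the start had 47.5 in the pooled list and 23.0 in each replicate. That signal ranked 5053 of 23789 in replicate 1 and 9042 of 29268 in replicate 2. A coding exon summit 4425 bp into the gene had a slightly higher pooled signal of 48.3 and 36.2 in replicate 2, but replicate 1 had no summit within 4447 bp of it. Replicate 1 held 1 summit in the whole unc-15 window and replicate 2 held 6. Of the 10 genes, unc-15 differed most between the replicates by number of summits.

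lev-11 (chrI:14621169-14631094, minus strand) codes for tropomyosin, which winds along the thin filament and gates myosin binding. It had 9 pooled summits, the most of the 10 genes, in a window of 11926 bp. The highest lay in an intron 5052 bp into the gene, with 48.9 in the pooled list, 13.0 in replicate 1 and 31.6 in replicate 2. The next, also in an intron at 2956 bp, had 47.4 in the pooled list, 23.5 in replicate 1 and 23.3 in replicate 2. The signals of the replicates were close at the second site, though their ranks were 4772 of 23789 in replicate 1 and 8690 of 29268 in replicate 2. At the first site the value of replicate 2 was the higher. The single upstream summit of lev-11, 1342 bp before the start, had a signal of 19.4 near the bottom of the pooled list, and neither replicate matched it.

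**Figure D4:**
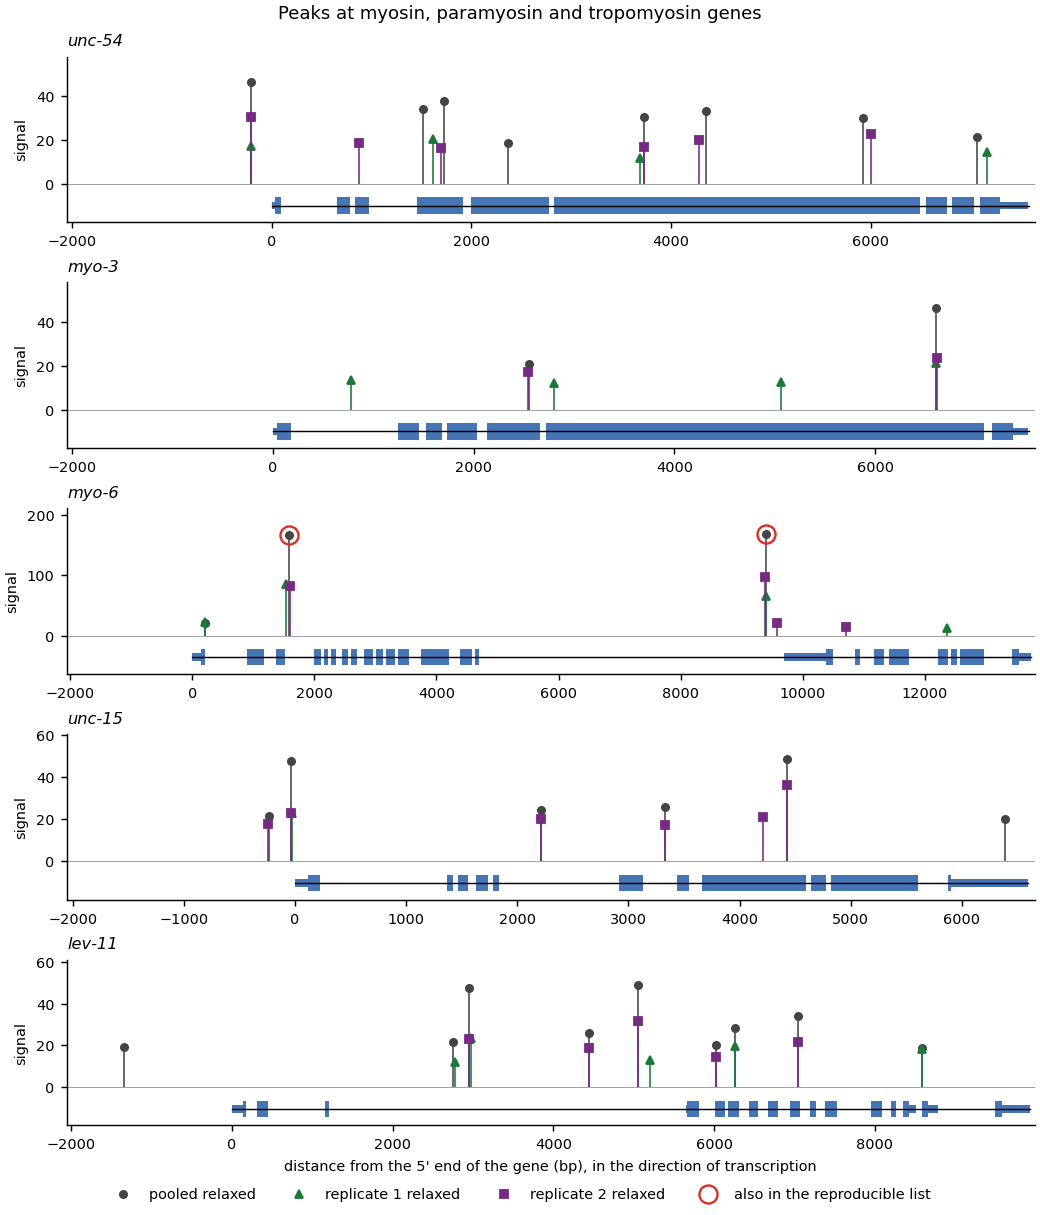
Summits at the myosin, paramyosin and tropomyosin genes by distance from the 5′ end of the gene (bp, in the direction of transcription) and signal, with the same symbols as for the actin genes. The signal axis differs between panels. myo-6 has 2 ringed summits, at 1590 and 9390 bp, and unc-54, myo-3, unc-15 and lev-11 have none.

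Replicates were compared peak by peak. Of the 44 pooled peaks of the 10 genes, 19 (43.2%) were matched by both replicates, where 38.2% of all nuclear pooled peaks were. Another 16 were matched by replicate 2 alone, 6 by replicate 1 alone and 3 by neither, or 36.4%, 13.6% and 6.82%, while the shares over all nuclear pooled peaks were 33.3%, 18.9% and 9.57%. The median pooled signal was 46.3 for the peaks matched by both, 23.2 for those matched by 1 replicate and 19.4 for those matched by neither. Within the upper 50% of the pooled list by signal, 18 of 25 member peaks were matched by both (72.0%), against 66.6% of all. Each of the 10 genes had at least 1 summit matched by both, where 38.5% of all protein-coding genes had one. At act-2 the only one had its replicate 1 summit 198 bp away, close to the 200 bp limit. Each of the 10 genes also had relaxed summits of replicate 1 (60.2% of all genes), of replicate 2 (66% of all genes) and of both (50.8% of all genes). Window length was not matched in these shares of genes, and the median was 7542 bp for the 10 genes against 4027 bp for all.

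**Figure D5:**
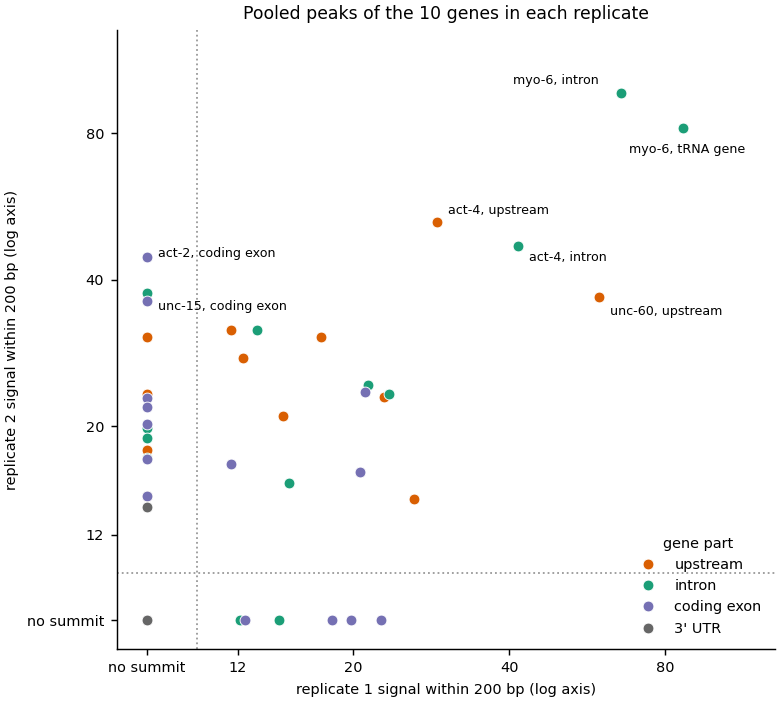
Signal within 200 bp of each of the 44 pooled summits in replicate 1 and in replicate 2 (both log axes), coloured by gene part, with peaks that a replicate did not match placed beyond the dotted lines. The 5 reproducible peaks lie at the upper right, and the act-2 and unc-15 coding exon peaks have a replicate 2 value only.

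By gene part, 14 of the 45 pairs of gene and pooled summit (31.1%) were upstream, 16 (35.6%) in coding exons, 13 (28.9%) in introns and 2 (4.44%) in 3′ UTRs. Over all protein-coding genes the shares were 40.8%, 26.6%, 24.98% and 5.51%. The count of pairs exceeds the 44 peaks because act-1 and act-2 share a summit between them. Both replicates matched 8 of 13 distinct upstream peaks, 7 of 13 intron peaks and 4 of 16 coding exon peaks, while over the windows of all protein-coding genes they matched 42.5% of upstream, 35.1% of intron and 32.6% of coding exon summits. The order of the parts was thus the same over all genes. Among reproducible summits, 2 were upstream and 3 in introns of the 10 genes, and over all genes 60.1% were upstream and 26.9% in introns. Counting only the 2000 bp upstream, unc-60 and act-4 had a reproducible summit (4.44% of all genes), and all but myo-3 and myo-6 had a pooled summit (45% of all genes).

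Short motifs were searched on both strands from 150 bases before to 150 bases after each reproducible summit. The E-box of the muscle factor HLH-1, CAGCTG, was found in 0 of the 5 member windows, and 6.17% of all 1411 nuclear reproducible summits held it. The general E-box CANNTG, which includes it, was present at unc-60, the act-4 intron and the myo-6 tRNA site, compared with 71.7% of all. GAGAGA, with overlapping copies counted, occurred 5 times at unc-60, 2 times in the act-4 intron and 1 time in the myo-6 long intron, and 38.4% of all summits held at least 1 copy. TATAAA was found upstream of act-4, starting 31 bp before the gene start, and at none of the other 4, compared with 23.3% of all. The word TGATAA was in none of the 5, compared with 23.5% of all. Among the 862 summits away from short RNA genes, the shares were 6.96% for CAGCTG, 72.4% for CANNTG and 44.4% for GAGAGA. They were 20.9% for TATAAA and 23.1% for TGATAA. In the 300 bp upstream of all protein-coding genes, the shares were 5.21% for CAGCTG, 66.1% for CANNTG, 21.6% for GAGAGA, 39.6% for TATAAA and 30.7% for TGATAA. These are matches of letters and say nothing on which protein was bound.

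Other genes of muscle and of the actin cytoskeleton were read in the same way, in 7 lists of 71 genes. A reproducible summit was found at 3 of the 71 (4.23%), against 6.88% of all protein-coding genes, and a pooled summit at 64 (90.1%), against 64.2%. Window length was not matched in this comparison. Some of the 71 windows were long, up to 83724 bp at ttn-1, against a median of 4027 bp for all genes. The 3 genes with a reproducible summit were 1 of 9 thick filament and M line genes, 1 of 18 actin assembly genes and 1 of 7 genes of the muscle membrane and calcium handling. unc-22, which codes for the giant thick filament kinase twitchin, had 135.8 in a coding exon, 37 bp from a tRNA gene. cyk-1, a formin gene, had 94.6 inside a tRNA gene 1396 bp upstream. sca-1, which codes for the calcium pump of the sarcoplasmic reticulum, had 92.1 at 1750 bp upstream in an intron of linc-129, with 26.5 in replicate 1 and 66.1 in replicate 2, and no short RNA gene within 3081 bp. Without summits near short RNA genes, the 10 genes still counted unc-60, act-4 and myo-6, and the 71 counted sca-1.

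Within these windows, the highest signals on the remaining lists stayed below the reproducible list. Of 13 troponin and thin filament genes 0 had a reproducible summit, and tni-4, a troponin I gene, was highest at 77.8 in its 3′ UTR. Of 14 dense body and attachment genes 0 had one, and unc-112, the kindlin gene, was highest at 66.6, 369 bp upstream. Of 7 other actin and myosin genes 0 had one, and myo-2, a pharyngeal myosin gene, reached 51.0 in a coding exon. Of the 3 muscle transcription factor genes, 1 had a pooled summit, hlh-1 with 20.7. The median highest pooled signal was 48.6 for the 10 genes and 37.3 for the 64 of the 71 with a pooled summit.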

How the data were processed

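ChIP-seq of DIE-1 fused to GFP was described in 2 biological replicates of whole young adults. The 4 peak lists on ce11 that the authors deposited were used, and the same lists on ce10 were not used here. Their signal column is the authors' own enrichment value for each peak, on a scale that is not stated, and the q-value column of the deposited lists was read as −log10. Not given in the sources used here: peak caller, aligner, read length, IDR threshold and depth. The authors' control was not analysed here. Per the labels, 1 field gives die-1 as the antibody and another an antibody against GFP.

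Summits were placed on WBcel235 with Ensembl 115 gene models in Python 3.11.15 (numpy 2.4.6, pandas 2.3.3, matplotlib 3.10.9). Genome sequence and the tRNA product name came from RefSeq. The placement of summits was tested on simulated data. The genes, lists and motifs were chosen with earlier results of these data known, so no test was run on them. All 10 genes are named, along with each other list's genes with a reproducible summit or, failing that, its highest gene. Words recurring elsewhere were counted on both strands at 31 and 50 bases. Alternatives were other windows (1000 and 500 bp upstream, 500 bp past the end), peak overlap, nearest start, the stronger 50% of peaks, other matching distances (100, 500 and, added later, 50 bp) and each replicate alone. Runs without peaks near short RNA genes or of mostly repeated words were also added later, with the data in view.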

Additional observations from a re-analysis of the deposited data

How the results depend on the processing

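The count of 10 genes with a pooled summit held in all 10 alternatives, and 8 to 10 genes had relaxed summits of both replicates. The count of 3 genes with a reproducible summit became 1 (myo-6) with the 50% of peaks with the highest signal and 4 when windows ran 500 bp past the gene end, which added act-2. Taking an equal number of strongest peaks from each replicate alone gave 2 genes without replicate 1, when unc-60 was lost, and 3 without replicate 2. act-4 was kept both times, although its stronger summit was in the intron in replicate 1 and upstream in replicate 2. Of the 44 pooled peaks, 19 were matched by both replicates within 200 bp and 12 within 50 bp, a distance added after the data had been seen, with 26 at 500 bp. For the other muscle and actin genes, the count of 3 became 1 with 1000 bp or 500 bp upstream. It became 5 to 500 bp past the end, which added pat-4, a dense body and attachment gene, and unc-45. The count was 1 with the highest 50% of peaks, 1 without summits near short RNA genes, and 2 to 5 with a replicate left out. No paired analysis was possible because the series holds 1 group. Depth, and therefore what a missing peak means, is unknown.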

Other observations

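A pooled peak lay 119 bp past the 3′ end of myo-6, in the 5′ UTR of the neighbouring gene exo-1, and had 45.2 in the pooled list, 15.7 in replicate 1 and 29.9 in replicate 2. A pooled peak 382 bp past the 3′ end of act-1 had 36.8 and 28.6 in replicate 1, with no replicate 2 summit within 200 bp. The highest summit of act-1 upstream lay in exons of the noncoding RNA genes T04C12.16 and T04C12.25, that of act-3 in exons of T04C12.15 and T04C12.21, and the act-2 summit 457 bp upstream in exons of T04C12.18 and T04C12.24.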
